A study of Drosophila melanogaster with 12 samples.

Results

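Fly photoreceptors keep their light response going with a set of genes known from mutants whose retinas degenerate (rdg) or whose afterpotential is altered (nina). The 9 genes described here were taken from the table by name, with no threshold on measured values, and serve membrane lipid turnover, rhodopsin handling and the supply of the retinoid chromophore. They are rdgA, rdgB, rdgC, ninaA, ninaC, ninaD, santa-maria, ninaB and ninaG. All 9 were found among the 15104 genes of the authors' table, and all 9 reached 1 FPKM in at least 1 group. FPKM, fragments per kilobase of transcript scaled to the mapped fragments of a library, corrects for transcript length, so levels can be compared between genes.

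RNA came from heads of adult flies of the 2202U background carrying UAS-GFP-L10A, a GFP-tagged ribosomal protein, together with 1 of 3 Gal4 drivers. The genotypes were Elav-Gal4/+;UAS-GFP-L10A/+ for neurons, repo-Gal4/+;UAS-GFP-L10A/+ for glia and UAS-GFP-L10A/+;takeout-Gal4/+ for the fat body, which stores nutrients and secretes proteins in insects. Tagged ribosomes were pulled from a lysate of 1000 heads with a GFP antibody (IP), and part of the lysate was kept as Input. Photoreceptors are themselves neurons. Every group carried the transgene and a driver, and no IP from flies without the tag is used here. The 12 samples formed 6 groups of 2 biological replicates, but the table gives 1 FPKM per gene and group, so no value has a standard deviation. The number of reads behind a value is also unknown. Values of 3 below are in the order neuron, glia, fat body unless named.

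In the photoreceptor, light-activated rhodopsin switches on phospholipase C, which splits a membrane phosphoinositide and releases diacylglycerol. The lipid is rebuilt by a cycle in which rdgA, a diacylglycerol kinase, makes phosphatidic acid and rdgB, a phosphatidylinositol transfer protein, moves lipid between membranes. Rhodopsin itself is folded with the help of ninaA, a cyclophilin of the secretory pathway, and is dephosphorylated by rdgC, a calcium-dependent phosphatase. ninaC, a myosin with a kinase domain, lies in the light-sensing microvilli. Rhodopsin carries a retinoid made from dietary carotenoids, which enter cells through the class B scavenger receptors ninaD and santa-maria. The carotenoid is cleaved and isomerised by ninaB, and ninaG, an oxidoreductase, acts late in making the hydroxylated chromophore. santa-maria and ninaB are known to act outside the retina.

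The marker genes of the drivers' cell types and of photoreceptors were checked first. The 8 photoreceptor markers (ninaE, Arr1, Arr2, trp, inaD, chp, norpA and eys) summed to 31152, 4250 and 8328 FPKM over the IPs and to 12705 to 15735 over the Inputs. Of the neuron IP sum, Arr2 made up 12717 FPKM, ninaE 8528 and Arr1 8405. In the neuron IP 3 of the 8 were at least 2-fold above the Input and 1 as far below. The shares of all genes were 19.0% and 13.1%. Under both rescalings described below, the counts of the 8 were 3 and 2. None of the 8 was listed at 0 in any group, and ninaE, the major rhodopsin gene, was at 2769 and 5822 FPKM in the glia and fat body IPs. The part of such photoreceptor RNA in the glia and fat body values of the 9 genes was not tested. The 6 glia markers summed to 3136 FPKM in the glia IP against 1041 and 1489 in the other IPs, with Gs2 at 2344 of that glia sum. In the glia IP 5 of the 6 were at least 2-fold above the Input, beside 18.7% of all genes. Under each of the median and total rescalings described below, 2 of the 6 were. The median log2 of these glia markers was 1.30, and under the rescalings 0.83 and 0.55. The 6 fat body markers summed to 24834 FPKM in the fat body IP against 2892 and 3246 in the other IPs, with Yp1 at 18284 and Lsp2 at 5338 of that sum. All 5 of them that were analysed were at least 2-fold above the Input there, beside 27.5% of all genes. Under each of the median and total rescalings described below, 2 of the 5 were. Their median log2 of 1.75 came to 0.99 and 0.33. The gene of the fat body driver, takeout (to), was at 9.57, 55.8 and 44.4 FPKM over the IPs, and with the glia tag it went from 9.32 to 55.8 FPKM (log2 2.46). The 4 general neuronal markers (elav, n-syb, Syt1 and brp) summed to 353 FPKM in the neuron IP, below the 517 of its Input, and to 49.1 and 86.1 in the glia and fat body IPs. Most of the sum was n-syb, at 396 FPKM in the neuron Input and 332 in the IP. With the neuron tag elav went from 15.03 to 3.48 FPKM, Syt1 from 85.9 to 13.98 and brp from 20.02 to 3.26, and the median log2 of the 4 was -2.07. Between groups of different drivers, fewer cells of a type and less RNA per cell cannot be told apart in such bulk RNA. An IP and its Input come from the same lysate. The cause of the lower neuronal markers in the neuron IP was not tested.

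The 9 genes differed widely in level in the head lysates. ninaC was the highest, with Input levels of 607, 429 and 454 FPKM, and ninaD the lowest at 2.68, 2.23 and 3.45. ninaC stood at 10.3% of the FPKM of ninaE in the neuron Input and at 20.4% in the neuron IP. For glia and fat body it stood at 5.50% and 4.53% in the Inputs and at 4.02% and 3.14% in the IPs. ninaE itself had Input levels of 5887, 7795 and 10027 FPKM. The 3 Inputs were close to each other for most of the 9 genes, with a highest-to-lowest ratio of 1.18 for ninaB to 1.74 for rdgB, and 2.32 for rdgA. rdgA was thus the only member of the set with a 2-fold difference between Inputs (62.2 FPKM with the neuron driver, 26.8 with the glia driver, log2 1.19), which was 0.95 and 0.96 when the columns were rescaled as described below. Of all genes, 0.988% were higher by 2-fold or more with the neuron than with the glia driver and 10.2% lower. Neither of the other Input pairs held a 2-fold difference for any of the 9, beside 0.521% higher and 0.422% lower of all genes for neuron against fat body and 8.0% and 0.332% for glia against fat body.

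**Figure D1:**
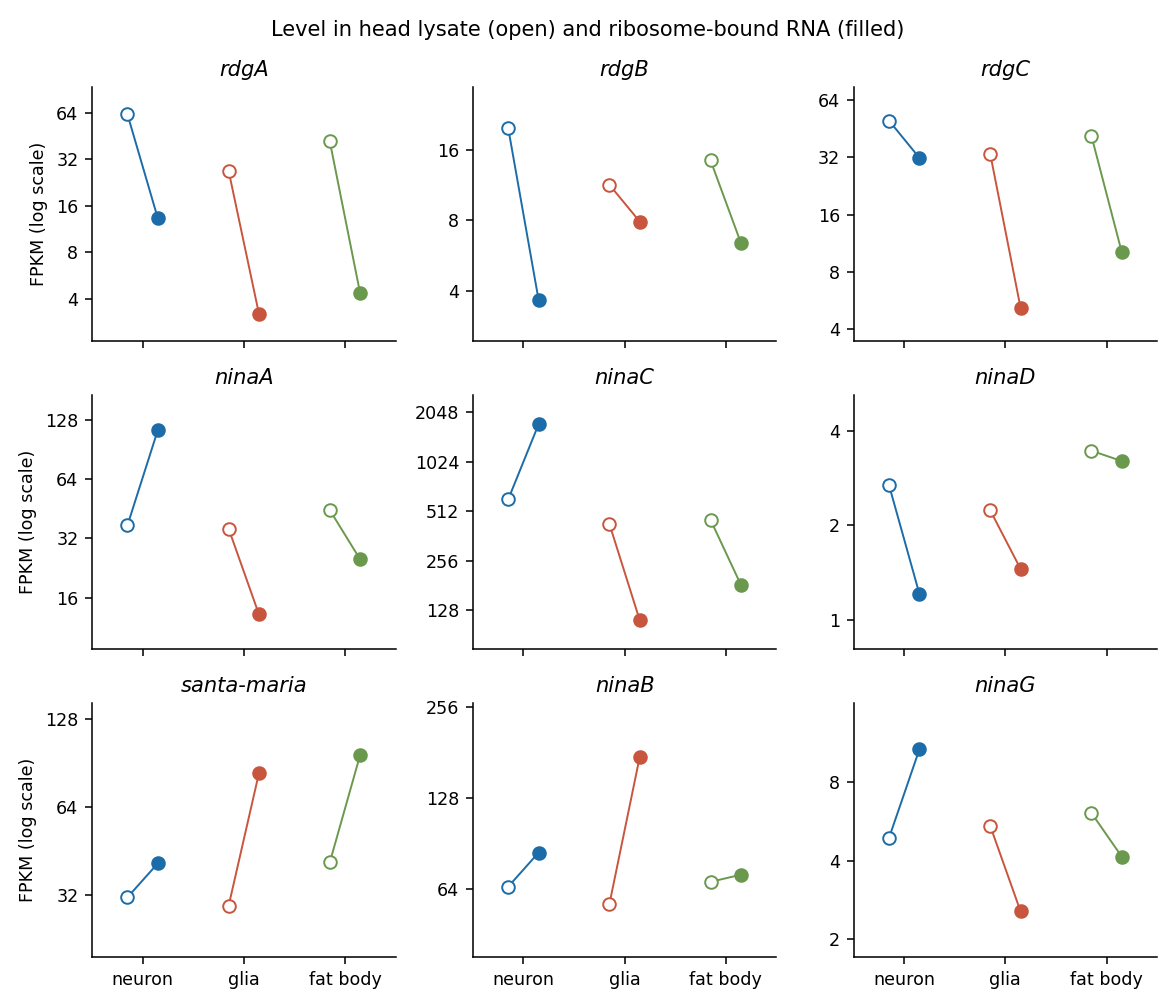
FPKM of each gene on a log axis (base 2), with a separate range for each panel; open circles are Input and filled circles IP of the neuron, glia and fat body groups, each the authors' combined value of 2 replicates. ninaA, ninaC and ninaG climb from Input to IP with the neuron tag and drop with the glia and fat body tags. rdgA, rdgB, rdgC and ninaD drop with every tag, and ninaB climbs most with the glia tag (57.1 to 175 FPKM).

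Comparing an IP with the lysate it came from shows how far a transcript was over- or underrepresented on tagged ribosomes. These comparisons have no test, and log2 ratios are of FPKM plus 1, with 2-fold or more counted as higher or lower. Of the 9 genes, 2 were higher and 2 lower in the neuron IP, 2 and 4 for glia, and 1 and 4 for the fat body. Over all genes analysed, 19.0% were higher and 13.1% lower in the neuron IP, 18.7% and 19.7% for glia, and 27.5% and 10.2% for the fat body. The median log2 of the 9 genes was 0.37, -0.85 and -0.81 for neurons, glia and fat body. Over all genes it was -0.0021, 0.05 and 0.10. The neuron median of the 9 came to -0.15 and -0.20 under the median and total rescalings named next. That of all genes came to -0.35 and -0.40. Another 2 scalings were tried, to a common median and to equal totals without ribosomal protein genes. They shifted the log2 IP/Input values down by 0.52, 0.47 and 0.80 (median) or 0.58, 0.75 and 1.49 (total), so that 864, 1103 and 1230 of all genes were higher and 2550, 3379 and 2706 lower under the median rescaling, where the deposited scale gave 2111, 2075 and 3056 higher and 1457, 2188 and 1133 lower. Under the total rescaling 788, 798 and 467 were higher and 2801, 4093 and 4835 lower.

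Both lipid turnover genes had lower IP than Input levels with every tag, as had rdgC and ninaD. rdgA (FBgn0261549) had Input levels of 62.2, 26.8 and 41.7 FPKM and IP levels of 13.2, 3.18 and 4.32. Every IP was thus below every Input, with log2 IP/Input of -2.15, -2.73 and -3.002. Of all genes, 2.07%, 0.36% and 0.054% had lower ratios. Among the IPs the neuron value was 4.16 times the glia value, but q in the authors' deposited table was 0.105, and 0.232 against the fat body. rdgB (FBgn0003218) had Input levels of 19.7, 11.3 and 14.4 FPKM and IP levels of 3.65, 7.88 and 6.39. Its order among IPs was the opposite of that of rdgA, the neuron IP being lowest, with log2 IP/Input of -2.16, -0.47 and -1.06. None of its 3 comparisons between IPs reached a q under 0.05 in the authors' deposited table (0.304, 0.496 and 0.245).

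rdgA and rdgB are also the longest of the 9. In a later fly annotation (BDGP6), the merged exons of their transcripts span 13764 and 9281 bp, longer than 99.3% and 97.5% of the genes analysed, whose median is 1868 bp. Across the 10825 genes with a length (96.8% of those analysed, and not independent of each other), Spearman's rho between length and log2 IP/Input was -0.31, -0.27 and -0.38. The part of length in the values of rdgA and rdgB was not tested. Genes of nearly equal length, rdgC (5299 bp), ninaC (5425 bp) and santa-maria (5563 bp), had neuron log2 IP/Input values of -0.63, 1.52 and 0.37. The shorter members, ninaA (871 bp), ninaD (1788 bp), ninaG (1937 bp) and ninaB (2164 bp), had values of 1.58, -0.74, 0.99 and 0.37.

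Of the rhodopsin handling genes, ninaC and ninaA had the clearest neuronal values. ninaC (FBgn0002938) stood at 1736 FPKM in the neuron IP against 607 in its Input (log2 1.52), at 111 in the glia IP against 429 (-1.94) and at 183 in the fat body IP against 454 (-1.31). The neuron IP was 15.6 times the glia IP and 9.50 times the fat body IP, and in the authors' deposited table q was listed at 0 for both. ninaA (FBgn0002936) had Input levels of 37.3, 35.8 and 44.5 FPKM and IP levels of 113, 13.1 and 25.03 (log2 1.58, -1.38 and -0.81). It was also called in both comparisons with the neuron IP, 8.61-fold and 4.53-fold, with q of 8.84e-10 against glia and 8.69e-06 against the fat body in the authors' deposited table. Under rescaling ninaA kept a 2-fold higher neuron IP (1.06 and 1.01), while ninaC came to just under 2-fold (0.99 and 0.94).

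rdgC (FBgn0004366) had Input levels of 49.9, 33.5 and 41.7 FPKM and IP levels of 31.8, 5.16 and 10.2. It was lower in the glia and fat body IPs than in their Inputs by more than 2-fold (log2 -2.48 and -1.94), and less so in the neuron IP (-0.63, or -1.14 and -1.20 under rescaling). Its neuron IP was 6.16 times the glia IP and 3.13 times the fat body IP, with q of 7.2e-08 and 0.00077 in the authors' deposited table. The neuron IP was thus higher than the other IPs for rdgC as for ninaA and ninaC, while its value relative to the Input was of the other sign.

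**Figure D2:**
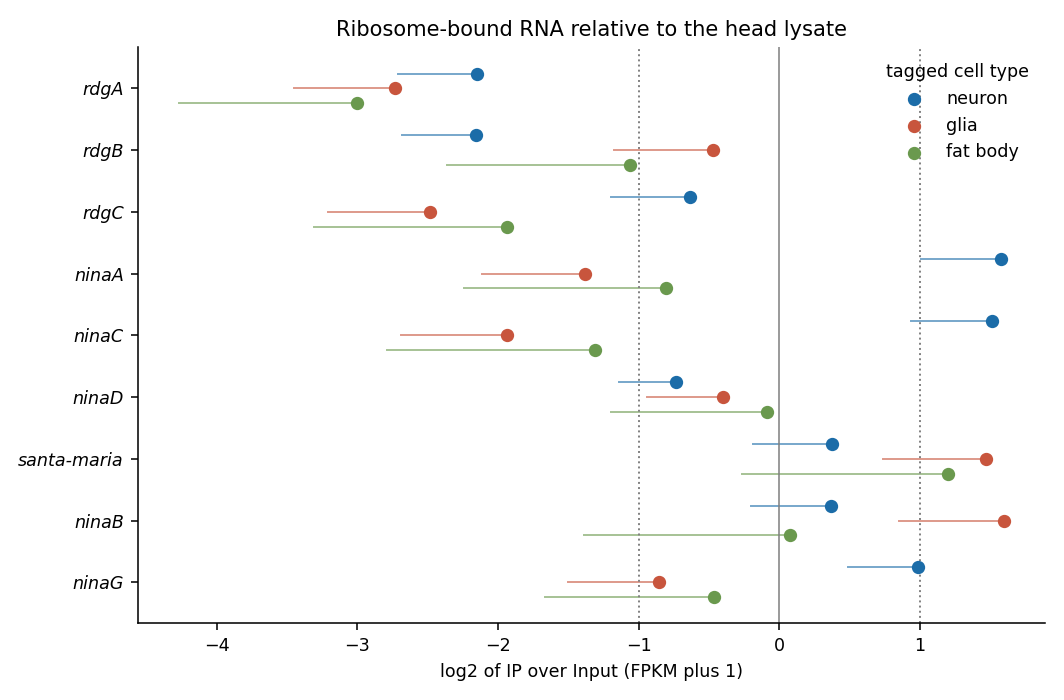
Log2 of IP over Input (FPKM plus 1) for each gene with the neuron, glia and fat body tags; points are the deposited scale, lines span the values under that scale and the rescalings to a common median and to equal totals, and dotted lines mark 2-fold. rdgA lies below -2 for every tag, ninaA and ninaC lie on opposite sides of 0 for neurons and glia, and santa-maria and ninaB have their highest values for glia (1.47 and 1.60).

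The retinoid supply genes did not share a pattern. ninaB (FBgn0002937), the carotenoid-cleaving enzyme, had Input levels of 65.2, 57.1 and 67.6 FPKM and IP levels of 84.4, 175 and 71.4. The glia IP was the highest of the 6 values, with log2 IP/Input of 1.60, and under rescaling 1.13 and 0.86. The neuron and fat body values of 0.37 and 0.08 turned negative under both rescalings. ninaB was higher in the glia than in the fat body IP, 2.45-fold with q of 4.47e-10 in the authors' deposited table. Against the neuron IP the 2.07-fold difference had a q of 0.112 there.

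santa-maria (FBgn0025697) had Input levels of 31.5, 29.5 and 41.5 FPKM and IP levels of 41.2, 83.8 and 96.6. The glia and fat body IPs were above all Inputs, with log2 IP/Input of 1.47 and 1.20, the latter being 0.41 under the median and -0.27 under the total rescaling. The neuron value of 0.37 turned negative under both. In the authors' deposited table santa-maria was higher in the fat body than in the neuron IP (2.34-fold, q 0.0268), while the glia IP, 2.03 times the neuron IP, had a q of 0.0843. Its glia and fat body IPs had a q of 0.378 against each other in that deposited table.

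ninaG (FBgn0037896) followed the pattern of ninaA at a lower level. Its Input levels were 4.88, 5.43 and 6.09 FPKM and its IP levels 10.6, 2.56 and 4.14, with log2 IP/Input of 0.99, -0.85 and -0.46. With 0.1 FPKM added, the neuron and glia values passed the 2-fold mark (1.11 and -1.06). Under the median and total rescalings the neuron value fell to 0.53 and 0.49. The glia value came to -1.26 and -1.50 and the fat body value to -1.12 and -1.66. Its neuron IP was 4.17 times the glia IP and 2.57 times the fat body IP, with q of 0.00119 and 0.0428 in the authors' deposited table. ninaD (FBgn0002939), known for carotenoid uptake in the midgut, had Input levels of 2.68, 2.23 and 3.45 FPKM and IP levels of 1.21, 1.45 and 3.20. Its IP levels were lower than its Input levels by 2.21, 1.54 and 1.08 times, which with 1 FPKM added came to log2 -0.74, -0.40 and -0.08, under the 2-fold mark. The neuron value passed that mark under both rescalings (-1.05 and -1.14) and with 0.1 FPKM added (-1.09). In the authors' deposited table it was called only between glia and fat body IPs, where the fat body was 2.20 times higher (q 0.0323).

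Between IPs, then, the authors' deposited table called 4 of the 9 genes higher in neurons than in glia (rdgC, ninaA, ninaC and ninaG) and 0 lower, with 15.5% and 15.3% of all genes. The same 4 were higher in neurons than in the fat body, with santa-maria lower, beside 9.32% and 11.9% of all genes in that deposited table; these comparisons share the neuron IP. In the glia IP, ninaB was higher than in the fat body IP and 4 genes (rdgC, ninaA, ninaC and ninaD) lower, beside 12.9% and 31.6% of all genes in the authors' deposited table. Over the 5599 genes that reached 5 FPKM throughout, the glia IP was lower than the fat body IP by a median log2 of 0.45, against -0.71 for ninaC. For ninaC the direction of that comparison turned under the total rescaling (0.08).

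**Figure D3:**
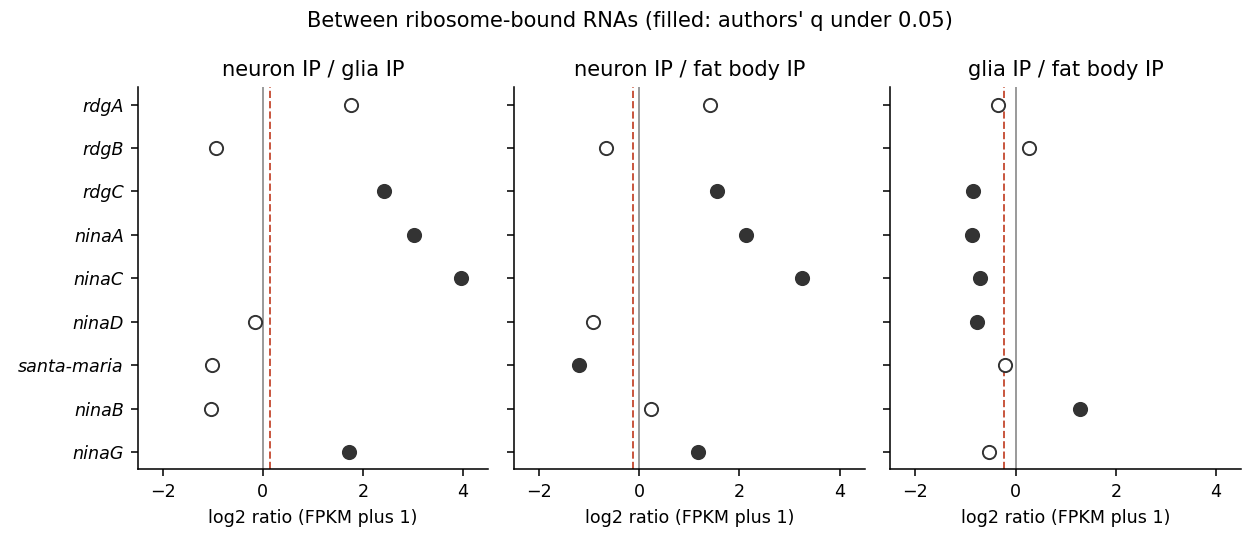
Log2 ratios between pairs of IPs (FPKM plus 1) for the 9 genes; filled points have a q under 0.05 in the authors' deposited table, open points do not, and the dashed line is the median of all genes analysed. Filled points for rdgC, ninaA, ninaC and ninaG lie right of 0 in both comparisons with the neuron IP, ninaC furthest at 3.95 and 3.24.

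The profile of each gene over the 6 groups was compared with that of 4220 other named genes, by the Euclidean distance between log2 values centred on their mean. Such likeness over 6 values is a description only. The nearest to ninaC were inaC, the eye protein kinase C (distance 0.19), Proct and Vha68-1, a proton pump subunit. inaC had Input levels of 171, 110 and 113 FPKM and IP levels of 500.3, 29.9 and 46.01. The nearest to rdgC were nAcRbeta-64B, an acetylcholine receptor subunit (0.16), eys, a matrix protein between the light-sensing membranes, and dpr12. The nearest to rdgA were brp, Sap47 and futsch, all proteins of synapses or axons (0.33 to 0.44). For rdgB they were ttk, W and dally, for ninaA GABA-B-R2, alpha-catenin-related and nAcRbeta-96A, and for ninaG Tsp42En, blue and sol. ninaB was nearest to Cyp4e1, blow and pck, the last a septate junction protein (0.13 to 0.22), and santa-maria to Mal-A5, PH4alphaEFB and SelG (0.29 to 0.31). ninaD was nearest to Karybeta3, Tango1 and RecQ5 (0.34 to 0.38). Within the set, the closest pair was ninaA and ninaG (0.97), followed by ninaA and ninaC (1.07).

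Other genes of the same pathways were read from lists. For IP against Input, the shares of all genes to set beside each list were 19.0% higher and 13.1% lower for neurons. They were 18.7% and 19.7% for glia and 27.5% and 10.2% for the fat body. Counts of all genes under the rescalings are given above. Of 16 genes of rhodopsin shut-off and of the microvillar partners of ninaC and rdgC, the neuron IP exceeded its Input by 2-fold for 7 and lay as far below it for 3. For glia these counts were 0 and 9, and for the fat body 0 and 7. The median rescaling gave 6 and 4, 0 and 11, and 0 and 12, and the total rescaling 5 and 4, 0 and 14, and 0 and 13. The median log2 values of the 16 were 0.45 (negative under both rescalings), -1.59 and -0.96. Arr1, Arr2, trp and inaD are also among the photoreceptor markers. The arrestins Arr1 and Arr2 went from 2225 and 3807 FPKM in the neuron Input to 8405 and 12717 in the IP (log2 1.92 and 1.74). rtp, which encodes retinophilin, the partner of ninaC, was named after its values were seen; it had 734 FPKM in the neuron Input, 2385 in the IP (1.70) and 116 in the glia IP. Cam, the calmodulin bound by ninaC and rdgC, was lower in every IP, at 1873 against 206 FPKM for neurons (-3.18). By the q of the authors' deposited table, 10 of the 16 were higher in the neuron than in the glia IP and 0 lower. The shares of all genes were 15.5% and 15.3%. For the arrestins, rtp and inaC, as for ninaC, the neuron IP was above its Input, which it was not for rdgC and Cam.

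**Figure D4:**
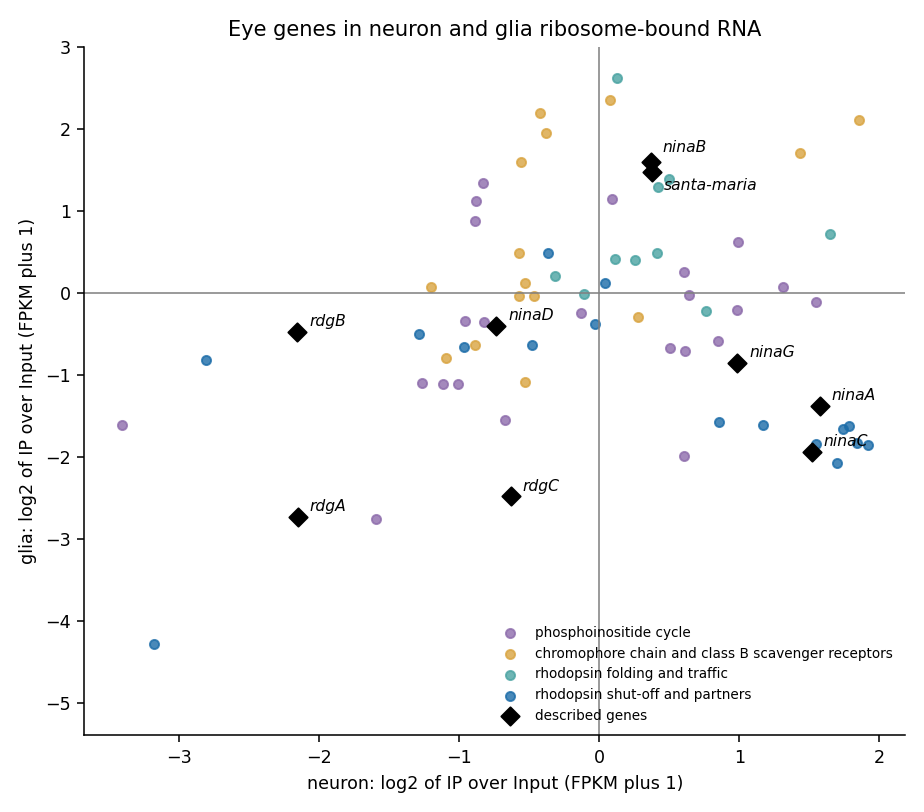
Log2 of IP over Input (FPKM plus 1) for neurons (horizontal) and glia (vertical); black diamonds are the 9 genes and coloured points the genes of 4 related lists. ninaC and ninaA lie at the lower right near the genes of rhodopsin shut-off, rdgA and rdgC at the lower left or centre, and ninaB and santa-maria above 0 for glia.

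Of 23 further phosphoinositide genes, the neuron IP exceeded its Input by 2-fold for 2 and lay as far below it for 5. For glia these counts were 3 and 7, and for the fat body 0 and 5. The median rescaling gave 1 and 11, 0 and 10, and 0 and 12, and the total rescaling 0 and 11, 0 and 11, and 0 and 16. The median log2 values were -0.13, -0.34 and -0.29, and lower under the rescalings, at -0.61, -0.69 and -1.08 (median) and -0.67, -0.93 and -1.61 (total). Pis, which makes phosphatidylinositol, went from 118 to 294 FPKM with the neuron tag (log2 1.31) and was higher in the neuron IP than in the glia and fat body IPs, with q of 0.000723 and 0.000144 in the authors' deposited table. stmA, part of the complex that anchors a phosphatidylinositol kinase, went from 127 to 230 FPKM (0.85), and Dgkepsilon, another diacylglycerol kinase, from 21.5 to 64.7 (1.55). The enzymes around rdgA were thus not uniformly low. Vap-33-1, an endoplasmic reticulum protein that tethers membranes, had the lowest value, from 58.9 to 4.63 FPKM (-3.41). norpA, the phospholipase C of vision, was named after its values were seen. Its Input levels were 196, 104 and 115 FPKM and its IP levels 64.0, 14.5 and 21.8, lower in every IP (-1.60, -2.76 and -2.35) as rdgA was. Unlike rdgA, norpA was called higher in the neuron than in the glia IP, with q of 2.19e-05 in the authors' deposited table. By q in that deposited table, 9 of the 23 were higher in the neuron than in the glia IP and 3 lower. The shares of all genes were 15.5% and 15.3%.

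Xport was also listed among rhodopsin folding and traffic genes but was not found in the authors' table. Of the 10 found, IP exceeded Input by 2-fold for 1 with the neuron, 3 with the glia and 5 with the fat body tag. For 0 of the 10 was the IP as far below. Under the median rescaling 1, 1 and 3 were higher and 0 lower, and under the total rescaling 1, 1 and 0 were higher, with 3 lower for the fat body. The medians of 0.33, 0.45 and 1.09 turned negative under both rescalings for neurons and glia and under the total rescaling for the fat body. The cyclophilins CG2852 and Cyp1, relatives of ninaA, had IP levels of 349, 1837 and 1401 FPKM and of 627, 884 and 1534 FPKM. For these, unlike ninaA, the neuron IP was the lowest of the 3. For cyp33 and Moca-cyp of the same list the neuron IP had the highest value, as for ninaA. Their IP levels were 38.4, 13.9 and 22.6 FPKM and 48.5, 22.1 and 24.5 FPKM. In the authors' deposited table, q of the neuron IP for cyp33 was 0.654 against glia and 0.912 against the fat body. Unlike ninaA, cyp33 was thus called in neither. In the same order q was 0.0265 and 0.0504 for Moca-cyp, 0.329 and 0.00195 for Cyp1, and 1.58e-08 and 2.84e-06 for CG2852. Moca-cyp was named after its values were seen. cyp33 went from 11.6 to 38.4 FPKM with the neuron tag (1.65), and Gp93, a chaperone of the endoplasmic reticulum, from 41.1 to 32.8 (-0.32).

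Of 15 further chromophore genes and class B scavenger receptors analysed, the neuron IP exceeded its Input by 2-fold for 2 and lay as far below it for 2. For glia these counts were 6 and 1, and for the fat body 5 and 0. The median rescaling gave 1 and 5, 6 and 3, and 5 and 1, and the total rescaling 1 and 6, 4 and 4, and 3 and 8. The medians were -0.53, 0.12 and 0.16, the last 2 of which turned negative under both rescalings. Pdh, a retinol dehydrogenase of pigment cells, went from 1334 to 4821 FPKM in the neuron and from 710.0 to 3079 in the glia IP, and CG7077, another retinoid dehydrogenase, from 167 to 451 and from 94.3 to 312. The scavenger receptor pes went from 15.5 to 6.15 FPKM with the neuron tag (-1.21). pinta, a retinoid-binding protein of pigment cells, and the receptor emp were named after their values were seen. pinta had IP levels of 27.6, 15.2 and 131 FPKM. emp had IP levels of 58.04, 272 and 91.9 FPKM. By the q of the authors' deposited table, 6 of the 15 were higher and 6 lower in the glia than in the fat body IP. Between neuron and glia IPs, 0 were higher and 3 lower in the neuron IP. The shares of all genes were 12.9% and 31.6% for glia against fat body and 15.5% and 15.3% for neuron against glia. The 6 pigment cell markers, which include pinta, summed to 145, 142 and 358 FPKM over the IPs. Of the fat body sum, v made up 187 FPKM and pinta 131. The others analysed were lowest in the fat body IP, w having IP levels of 49.4, 81.1 and 16.1 FPKM, bw 34.6, 23.0 and 17.9, and st 13.2, 8.06 and 5.03. The Inputs of w already differed between drivers, at 21.0, 16.7 and 5.67 FPKM, and w was above its Input with every tag. Input levels were 19.4, 18.9 and 18.1 FPKM for bw and 5.71, 4.40 and 5.56 for st.

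**Figure D5:**
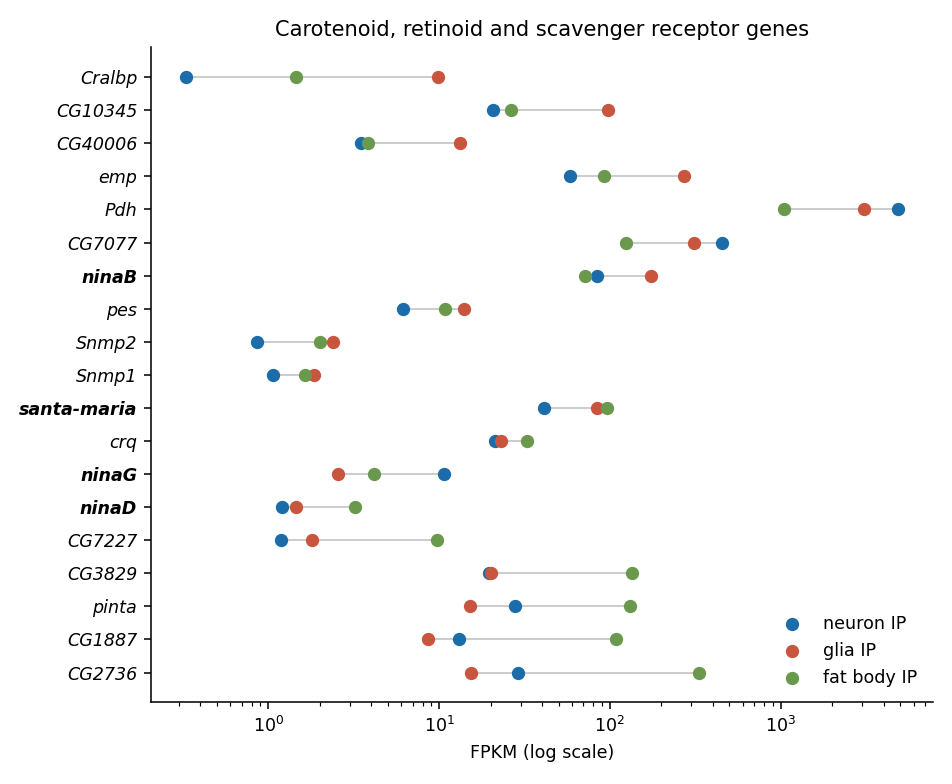
FPKM on a log axis in the 3 IPs for 4 of the 9 genes (bold) and 15 further chromophore and class B scavenger receptor genes, ordered by the ratio of glia to fat body. ninaB (175 FPKM in the glia IP) lies among the genes with a higher glia value, and santa-maria has its glia and fat body points close together at 83.8 and 96.6 FPKM.

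Overlapping genes limit some of these values, since how strand was used in counting is not given in the sources used here. In the later annotation all of the ninaA exons lie within those of CG15824 on the other strand, but CG15824 was at 0.13 to 0.65 FPKM throughout. For santa-maria 9.49% of the exon length is shared with CG5973 on the other strand, whose glia level went from 81.7 FPKM (Input) to 437 (IP) and whose fat body IP level was 93.0. For ninaB 6.65% is shared with Adgf-D and f-cup, at 31.7 and 30.1 FPKM in the glia IP. The part of these neighbours in the santa-maria and ninaB values was not tested. The gene identifier of rdgC has changed since, so its length was found by symbol.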

How the data were processed

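TopHat2 2.0.6, Cufflinks 2.0.2, Cuffdiff 2.0.2 and the genome build BDGP5 are named, per the submitters' processing notes. The authors deposited 1 table of 15104 genes with an FPKM value for each of 6 groups on a linear scale, each combining 2 replicates, and a q-value for each pair of IP groups. Per the labels, each replicate pools 4 technical replicates. How replicates were combined or libraries scaled, and the annotation release, are not given in the sources used here. Without counts or values per replicate, depth and its precision are unknown, and linear models planned for that case were not run.

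Python 3.11.15, numpy 2.4.6, pandas 2.3.3, scipy 1.17.1 and matplotlib 3.10.9 were used. The 11181 genes with at least 1 FPKM in a group were analysed. Log2 ratios are of FPKM plus 1. Between IPs a gene was called where the authors' q was under 0.05, and elsewhere from 2-fold, leaving out genes listed at 0. The calls were tested on simulated data, which cannot show the spread between replicates of these groups.

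The 9 genes were always named. From each list the 2 genes of highest mean FPKM and those with the largest and smallest neuron log2 IP/Input were named, and the 3 nearest profiles per gene, among those reaching 5 FPKM anywhere whose symbol is no CG or CR number. No value decided which rows were taken, but the 9 genes and the lists were proposed and chosen with earlier results of these data known. Alternatives were other pseudocounts, filters, thresholds and 2 rescalings. No sequences are shown, as none was used here.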

Additional observations from a re-analysis of the deposited data

Results flagged for a closer look

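ninaA was at least 2-fold higher than its Input in the neuron IP and at least 2-fold lower in the glia IP, and the log2 IP/Input of neurons exceeded that of glia by 2.96 (2.90 and 3.12 under the median and total rescalings). ninaC did the same against glia, by 3.45 (3.40 and 3.63), and against the fat body, by 2.82 (3.10 and 3.73). These values were singled out because the IPs of 2 cell types moved in opposite directions. Each rests on 1 combined value per group, and the difference itself was not tested.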

How the results depend on the processing

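No paired analysis was possible because the table combines both replicates of a group in 1 value, and leaving out a replicate was not run for the same reason. Changing the pseudocount or the filter on low values moved no count of the 9 genes by over 1.5 times, although ninaD drops out at a minimum of 5 FPKM. For IP against Input, the genes counted higher and lower were 1 and 4 for neurons under both rescalings. For glia 0 were higher under the total rescaling. For the fat body 0 were higher under both rescalings and 8 lower under the total rescaling. At 1.5-fold, 4 were lower in the neuron IP. At 3-fold, the neuron IP had 0 higher, that of glia 1 and that of the fat body 0, with 2 lower. Between neuron and glia Inputs, 0 were higher under both rescalings and at 3-fold and 2 at 1.5-fold, and at 1.5-fold 1 was lower in the glia than in the fat body Input. With q under 0.01, 0 were lower in the neuron than in the fat body IP, santa-maria being lost, as were ninaG there and ninaD between glia and fat body. Under the total rescaling 2 were higher in the glia than in the fat body IP, since ninaC turned to 0.079, and santa-maria in the fat body IP against its Input turned to -0.27. The shift follows from the rescaling itself. Which scale the authors' test used is not given in the sources used here. The depth behind the values is unknown.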
